A study of Mus musculus with 45 samples.

Results

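The 8 Nodal pathway genes Nodal, Gdf3, Tdgf1, Acvr2b, Lefty1, Lefty2, Smad2 and Smad3 were followed while mouse neural progenitor cells (NPCs) were reprogrammed to induced pluripotent stem cells. They were taken by name, and all 8 were found among 23575 genes of the gene table, with 105 of 276608 transcripts in the transcript table. The 45 libraries were read on Oxford Nanopore flow cells, 22 as direct cDNA on R9 flow cells and 23 as PCR cDNA on R10 flow cells. All NPC cultures came from the Oct4-GFP stem cell line O4G, and the labels give 3 genotypes: wild type (WT), OKMS-Luciferase-AS and OKS-Luciferase-AS. OKMS and OKS are doxycycline-induced sets of reprogramming factors that differ by Myc in name, and the labels do not state what the luciferase element does. WT, OKMS and OKS NPCs in NPC medium gave 4 R9 and 4 R10 libraries. WT cells after 2 days in FBS-LIF with doxycycline, a serum medium, gave 1 R9 and 2 R10 libraries. For OKMS and OKS cells in that medium the R9 set holds 1 library per genotype on each of days 2, 4, 6, 10, 14 and 20. The R10 set holds both genotypes on days 2, 6 and 18 and OKMS alone on days 4 and 10. Cultures switched to 2i-LIF (a GSK3 and a MEK inhibitor with LIF, without serum) gave R9 libraries at day 14 (OKMS) and day 20 (OKMS and OKS) after a move at day 6, and R10 libraries at day 18 (OKMS and OKS), whose day of switching is not in the labels. WT embryonic stem cells (ESCs) in 2i-LIF gave 2 R9 libraries (O4G and R1) and 7 R10 libraries: 2 of O4G, 2 of R1, 2 of R1-Clone3 and 1 further R1 library without an n number in its label. Nothing in the labels ties replicates to separate cultures, so p-values measure the spread between these libraries, which may be technical. In the R9 day series, with 1 library per genotype and day, genotypes or days stand in for replicates.

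Nodal and its relative Gdf3 are secreted ligands of the TGF-beta family. They bind activin receptors, among them the type II receptor Acvr2b, with Tdgf1 (Cripto) as a membrane-anchored co-receptor. The receptors phosphorylate Smad2 and Smad3, which enter the nucleus with Smad4 and act with partners such as Foxh1. Lefty1 and Lefty2 are secreted antagonists that block the ligand and its co-receptor, and both are known targets of the same signal. In the embryo the pathway patterns the epiblast, the primitive streak and the left-right axis, and the genes are also transcribed in pluripotent stem cells.

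Gene values are CPM, reads scaled to a common library size, and each value is a whole number of reads. R9 libraries held between 448250 and 1391635 reads and R10 libraries between 567129 and 4245818, so 3 reads, the limit that a count of 0 allows, came to 2.16 to 6.69 CPM in R9 and 0.707 to 5.29 CPM in R10. These limits cover counting error only. The labelled cell types were checked on 8 pluripotency and 8 neural progenitor markers. Their summed CPM was 17.1 to 28.0 and 5227 to 6901 in the R10 NPC libraries, against 11256 to 13878 and 5.19 to 44.4 in the R10 ESC libraries. In these bulk samples, fewer cells that transcribe a gene and less RNA per cell cannot be told apart. R9 and R10 libraries differ in kit, flow cell and amplification at once, so each result is given within one chemistry where the design allows.

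The first question was which of the 8 genes differ between ESCs and NPCs. Both ligands, the co-receptor and both antagonists were called higher in ESCs in both chemistries, Acvr2b was called higher and Smad3 lower in R9 alone, and Smad2 was called in neither. Whether Acvr2b and Smad3 differed between chemistries did not pass its own test (limma interaction, adjusted p = 0.095 and 0.74). In R10, 5 of the 8 genes were called (limma, Benjamini-Hochberg adjusted p under 0.05 and a difference of at least 1 in log2(CPM + 1)), all higher in ESCs. Of all 15415 genes tested, 22.4% were called higher and 23.5% lower. In R9, 7 of the 8 were called, 6 higher and 1 lower, where 17.6% of 15746 genes were called higher and 18.4% lower. Nodal, Gdf3, Tdgf1, Lefty1 and Lefty2 in both chemistries, and Acvr2b in R9, passed the filter on low values through the ESC libraries alone. Their direction was fixed by that filter, so the counts are a description.

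Nodal, the ligand that names the pathway, was at 0, 0, 0.584 and 0.635 CPM in the 4 R10 NPC libraries, which is 3 reads in all. In R10 ESCs it ranged from 51.1 to 123 CPM with a median of 81.5 (7 libraries), so the groups did not overlap. The difference was 6.04 in log2(CPM + 1) (SE 0.23, limma adjusted p = 6.4e-12), and it was 6.18 in R9 (SE 0.40, limma adjusted p = 9.4e-05), with 78.6 and 91.2 CPM in the 2 ESC libraries. Gdf3, the second ligand, rested on 2 reads over the R10 NPC libraries and ranged from 186 to 320 CPM in R10 ESCs. Its difference was 7.67 (SE 0.18, limma adjusted p = 3.9e-14). In R9 it was at 0 in all 4 NPC libraries and at 145 and 161 CPM in ESCs, at least 159-fold higher when 3 reads over the NPC group are taken as the limit.

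Tdgf1, the co-receptor, rested on 3 reads over the R10 NPC libraries and ranged from 252 to 506 CPM in R10 ESCs (difference 8.36, SE 0.18, limma adjusted p = 1.6e-14). The lowest value was that of the R1 library without an n number, and the other 6 ESC libraries lay between 389 and 506 CPM. That library also stood apart in the share of mitochondrial genes, at 0.124% against 1.81% to 2.35% in the other 6, and the part of this in its values was not tested. Without it the Tdgf1 difference was 8.47. The R9 ESC libraries had 501 and 566 CPM. In R10 the mitochondrial share also differed between the groups, since the NPC libraries were at 0.153% to 1.12%, below the 6 ESC libraries with an n number. Its part in the ESC against NPC differences was not tested. The annotation lists 2 processed pseudogenes of Tdgf1, neither of which is in the gene table, and whether their reads were counted to Tdgf1 is not given in the sources used here.

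Acvr2b, the type II receptor, was at 2.92 to 11.8 CPM in NPCs and 4.93 to 23.5 CPM in ESCs in R10, and the groups overlapped (difference 0.70, SE 0.37, limma adjusted p = 0.10). The highest value was that of the R1 library without an n number, and the other 6 ESC libraries reached 10.1 CPM (difference without it 0.48, limma adjusted p = 0.16). Without the WT replicate 2 NPC library the R10 difference was 1.05 and passed the call (limma adjusted p = 0.019). In R9 the gene was at 0 in 3 of 4 NPC libraries and at 5.68 and 9.31 CPM in ESCs, and it was called higher in ESCs (difference 2.66, SE 0.54, limma adjusted p = 0.0083). That call rests on the 2 ESC libraries. Without the O4G library the difference was 2.98 and without the R1 library it was 2.35, each with 1 ESC library left and so no spread of its own.

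Lefty2, an antagonist, was at 0 in all 8 NPC libraries. In R10 ESCs it was at 1.49 to 91.9 CPM with a median of 7.27, and taken over the pooled reads it was at least 76.3-fold higher than the limit of 3 reads in the NPC group. R1-Clone3 n1 held 317 of the 476 pooled Lefty2 reads, and without it the bound was 30.2-fold. The fitted difference was 3.43 (SE 0.67, limma adjusted p = 0.00029). Lefty1 rested on 2 reads in 1 of the 4 R10 NPC libraries and was at 2.30 to 54.2 CPM in R10 ESCs, with a median of 7.30 (difference 3.23, SE 0.58, limma adjusted p = 0.00015). Both antagonists were highest in the same ESC library, R1-Clone3 n1. In R9 ESCs, Lefty1 had 57.8 and 47.5 CPM and Lefty2 had 97.5 and 78.2 CPM in O4G and R1. The R10 minus R9 contrast of the ESC minus NPC difference was -2.51 for Lefty1 and -3.04 for Lefty2, and neither interaction passed the threshold (limma adjusted p = 0.10 and 0.082).

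The pair is close in sequence, which bears on how reads are split between them. Over 1104 aligned coding bases of the annotated transcripts, Lefty1 (chr1:180935022-180938400, GRCm38, plus strand) and Lefty2 (chr1:180893108-180899103, plus strand) were identical at 91.8% of positions, and the longest identical run was 140 bases. The stretch of 60 coding bases with the most differences is shown, with the 18 differing bases in capitals. How the counting treated reads that match both genes is not given in the sources used here.
Lefty1: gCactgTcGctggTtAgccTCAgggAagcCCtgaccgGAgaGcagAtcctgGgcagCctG
Lefty2: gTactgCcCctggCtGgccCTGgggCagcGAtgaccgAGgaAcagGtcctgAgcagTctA

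Smad2, an effector, was at 40.9 to 48.8 CPM in R10 NPCs and 42.6 to 52.5 CPM in R10 ESCs. The groups overlapped and the difference was 0.04 (SE 0.12, limma adjusted p = 0.79). Smad3, the second effector, was at 9.53, 15.2, 16.3 and 19.8 CPM in R10 NPCs and at 5.82 to 10.4 CPM in R10 ESCs. The lowest NPC library lay inside the ESC range. The fitted difference of -0.96 (SE 0.23, limma adjusted p = 0.0014) passed the p threshold but not the size threshold, which it crossed with a pseudocount of 0.25 (-1.03), with edgeR (-1.01), without R1-Clone3 n1 (-1.05) and without the WT replicate 2 NPC library (-1.16). In R9 the difference of -1.26 (SE 0.36, limma adjusted p = 0.031) was called, with 20.2 to 32.9 CPM in NPCs and 6.63 and 14.9 CPM in ESCs, and it was not called by DESeq2 (adjusted p = 0.081). The R9 call was also lost without the WT replicate 2 NPC library or the OKMS NPC library (limma adjusted p = 0.065 and 0.064). Without the O4G ESC library, which leaves only the R1 library in that group, the difference was -0.73.

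Around these members, 18 of 32 tested genes of the extended pathway lists were called in R10, 10 higher and 8 lower in ESCs, with a median difference of -0.25 against 0.0059 over all genes tested. This is 56.3% of the tested genes, beside 45.8% over all genes. In R9, 14 of 33 were called (42.4%, beside 36.0%), 10 higher and 4 lower, and the median had the opposite sign, 0.10 against -0.07 over all genes. Foxh1, the Smad partner, had the highest rise, with 71.7 ± 7.66 CPM (SD, n = 7) in ESCs and 0.299 ± 0.414 CPM (SD, n = 4) in NPCs, and it passed the filter through the ESC libraries alone. Eng (endoglin, a TGF-beta co-receptor) and Smad7 (an inhibitory Smad) also rose, by 4.11 and 3.78. Of the TGF-beta branch, Tgfbr2, the type II TGF-beta receptor, fell to 1.34 ± 0.715 CPM (SD, n = 7) in ESCs against 63.0 ± 20.0 CPM (SD, n = 4) in NPCs, and the ligand genes Tgfb2 and Tgfb3 fell by 3.16 and 2.87. Tgfb3, at 0.601 ± 0.782 CPM (SD, n = 7) in ESCs, passed the filter through the NPC libraries, which fixed its direction.

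**Figure D1:**
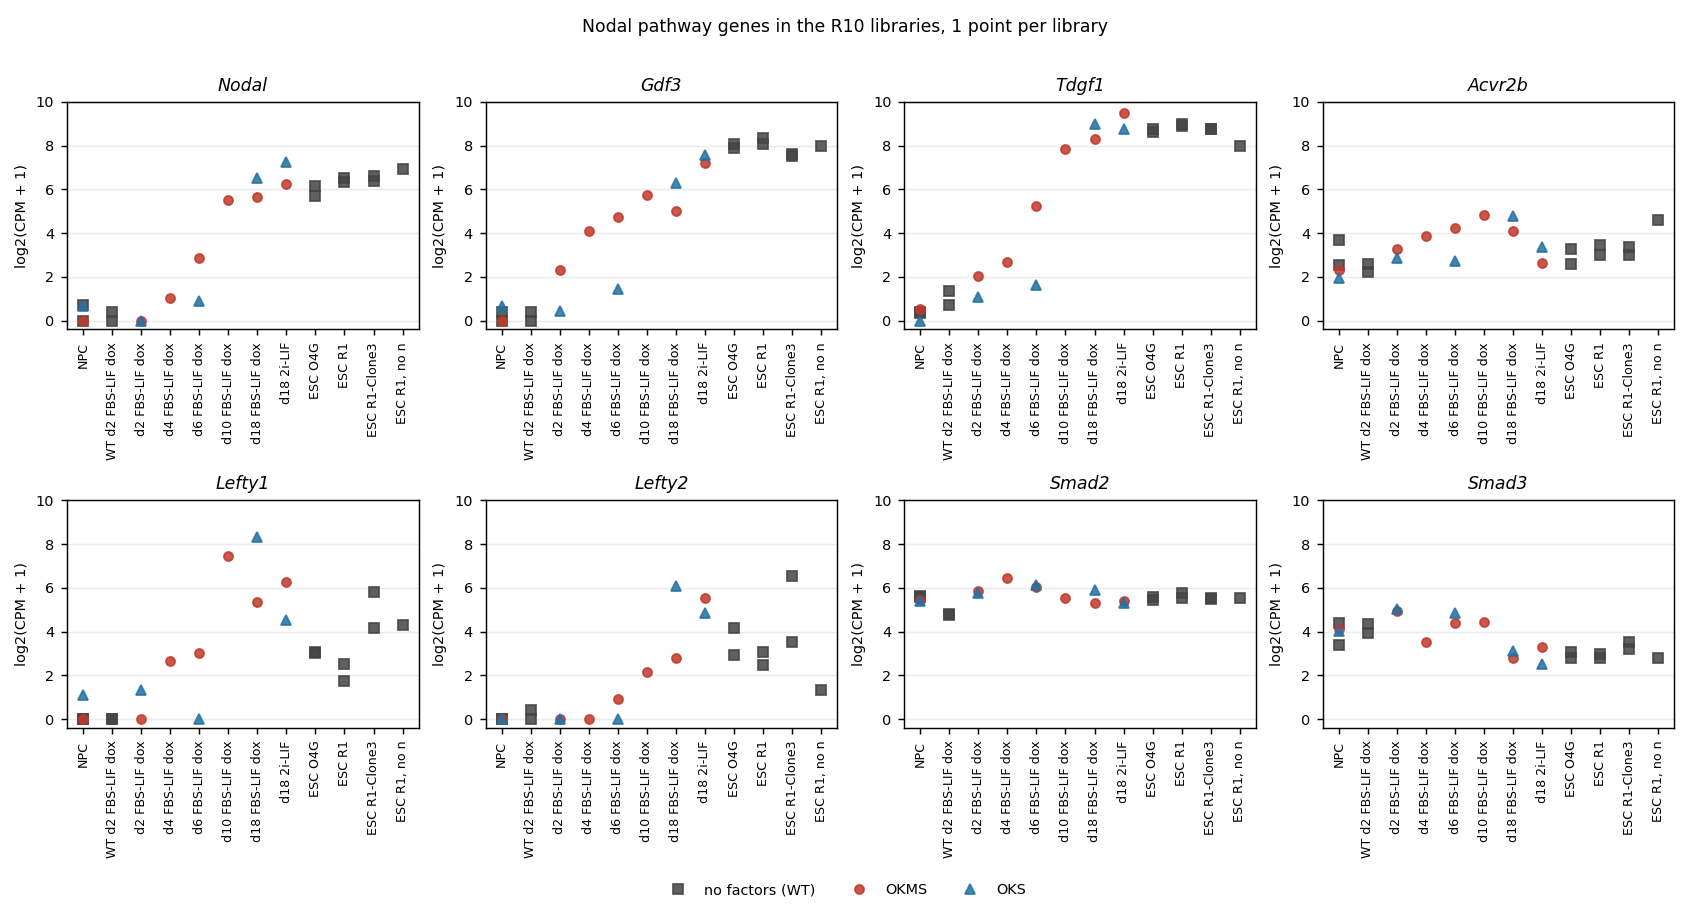
Level of each gene in every R10 library, as log2(CPM + 1), by condition, with WT libraries as squares, OKMS as circles and OKS as triangles. Nodal, Gdf3 and Tdgf1 are near 0 in NPCs and above 30 CPM from day 10 on, Lefty1 and Lefty2 are spread widely among the ESC libraries, and Smad2 stays between 26.4 and 85.1 CPM throughout.

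Medium and doxycycline without factors were examined at day 2. In WT cells after 2 days of FBS-LIF with doxycycline, Nodal was at 0 and 0.329 CPM, Gdf3 at 0 and 0.329 CPM, Tdgf1 at 0.659 and 1.57 CPM and Lefty1 at 0 in the 2 R10 libraries. These 4 genes and Lefty2 fell under the filter of 1 CPM in 2 libraries and were not tested. Of the 3 tested members 0 were called (limma), where 26.8% of 14688 genes were. Smad2 alone had an unadjusted p under 0.05, and edgeR and DESeq2 also called 0. Smad2 was at 26.4 and 27.0 CPM against 46.7 and 48.8 CPM in WT NPCs, with no overlap, but the difference of -0.82 (SE 0.23) missed the p threshold narrowly (limma adjusted p = 0.05004) and the size threshold, and in R9 the sign was opposite (0.11 with 1 against 2 libraries). In the extended lists 12 of 28 tested genes were called (42.9%), 11 of them higher. They included Tgfb3, which was at 67.9 ± 33.0 CPM (SD, n = 2) against 9.40 ± 1.53 CPM (SD, n = 2), and Inha and Fstl3, genes of the inhibin and follistatin families. Fstl3, at most 0.287 CPM in WT NPCs, passed the filter through the day 2 libraries alone. Markers of other cell types moved with this comparison. The summed CPM of 4 astrocyte markers was 2280 and 4364 against 126 and 184 in WT NPCs, where Aqp4 was at 0. That of 6 mesenchymal markers was 93.6 and 211 against 16.2 and 29.3, with Col1a2 at 0 in both groups, and that of the 3 listed extraembryonic endoderm markers in the table was 72.8 and 161 against 4.13 and 5.74. Their part in the result was not tested. Leaving out any 1 of the 4 libraries took the count over all genes from 3940 to between 0 and 1141.

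With factors added for 2 days, 4 members were tested in R10 and 0 were called (limma), against 0.740% of 15402 genes (0.714% higher and 0.0260% lower). Of these, 1 had an unadjusted p under 0.05, and edgeR and DESeq2 also called 0. This was Smad2, at 53.7 and 56.9 CPM with factors and 26.4 and 27.0 CPM in WT cells in the same medium, groups that did not overlap (difference 1.02, SE 0.41, limma adjusted p = 0.27). In R9 the sign was opposite, with 48.6 and 42.8 CPM with factors and 49.5 CPM in the 1 WT library (difference -0.12, limma adjusted p = 0.86). Smad3 was at 29.2 and 31.3 CPM with factors and at 14.5 and 19.1 CPM without (limma adjusted p = 0.43). The share of mitochondrial genes also separated the R10 groups, at 1.51% and 1.64% with factors and 0.319% and 0.165% in WT cells, and its part in these gaps was not tested. These WT libraries also stand in the comparison with WT NPCs. Gdf3 stood at 3.95 CPM in OKMS and 0.373 CPM in OKS, and was not tested.

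The reprogramming course was followed over days 0 to 20. Day 0 stands for the OKMS and OKS NPCs in NPC medium, and the later days are in FBS-LIF with doxycycline. In OKMS cells of the R9 series Gdf3 was at 2.26, 16.7 and 83.2 CPM on days 2, 4 and 6, Nodal was at 1.13, 4.17 and 10.9 CPM and Tdgf1 was at 0, 4.17 and 73.7 CPM. On day 10 Nodal was at 64.7 CPM, Tdgf1 at 447 CPM and Gdf3 at 99.9 CPM. In OKS cells Nodal was at 0 on days 2 to 10, then at 8.27 CPM on day 14 and 120 CPM on day 20, and Tdgf1 went from 2.23 CPM on day 10 to 33.9 CPM and 578 CPM on the same days. By day 20 the OKS values of both genes were above the OKMS values of 81.3 and 441 CPM.

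In R9 both antagonists were highest on day 10 in OKMS. Lefty1 was at 4.17 CPM on day 4, 50.5 CPM on day 6 and 274 CPM on day 10, then at 129 CPM on day 14 and 30.8 CPM on day 20. Lefty2 had 2.73, 32.4, 23.2 and 8.62 CPM on days 6, 10, 14 and 20. In OKS cells both genes were highest on the last day, Lefty1 at 11.2, 57.1 and 199 CPM on days 10, 14 and 20 and Lefty2 at 0, 2.48 and 38.1 CPM. The OKMS R10 series, with other libraries, had Lefty1 at 7.07 CPM on day 6, 177 CPM on day 10 and 40.1 CPM on day 18, but Lefty2 there was highest on day 18, at 0.883, 3.39 and 5.94 CPM on the same days. With 1 library per genotype and day, single steps have no replicate.

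Over both genotypes, the moderated F test for any difference from day 0 called 3 of 8 members in R9, where 10.7% of 19357 genes were called: Nodal (limma adjusted p = 0.031), Tdgf1 (0.019) and Lefty1 (0.025). The 2 genotypes served as replicates of each day here. These p-values therefore rest on how far OKMS and OKS disagreed by day, beyond their mean difference. Gdf3 missed narrowly (limma adjusted p = 0.051), although its largest difference from day 0, on day 20, was 6.70. For day 20 alone against day 0 the limma adjusted p was 0.0051 for Gdf3, 0.044 for Lefty2 (difference 4.28) and 0.032 for Smad3 (-2.78). For Acvr2b it was 0.054. These values are adjusted over genes but not over days. The count from the F test leaned on single days and on the tool. Without day 14 no member was called, without day 2 or day 20 only 1 was, and without day 10 there were 5. With edgeR on the reads 7 of 8 were called. The Nodal call was lost with a pseudocount of 0.25 and with quantile normalization (limma adjusted p = 0.055 and 0.051), and the Lefty1 call with DESeq2 (adjusted p = 0.054). Nodal, Gdf3, Lefty1, Lefty2 and Acvr2b were at 0 in both day 0 libraries and passed the filter through later days alone. Tdgf1 was at 0 and 1.35 CPM on day 0 and also needed later days to pass. The filter thus favoured a rise, so the count of members is a description. Day 0 differs from the later days in medium, doxycycline and time at once, so these cannot be told apart in a difference from day 0. The part of cell composition in these changes was not tested. Acvr2b was at 0 in both genotypes on days 0 and 2 and peaked at 17.9 CPM in OKMS on day 14. At the depth of those libraries a count of 0 allows up to 3.39 to 5.06 CPM. In R10 the gene was at 2.92 and 3.95 CPM on day 0 and at 6.34 and 8.69 CPM on day 2, so the R9 counts do not show that it was off. Smad2 stayed between 34.5 and 73.7 CPM with no called change (limma adjusted p = 0.69). Smad3 was at 26.9 and 20.2 CPM on day 0 and at 0 and 11.5 CPM on day 20 in OKMS and OKS (limma F test over all days, adjusted p = 0.11). In the extended lists 5 of 38 tested genes were called (13.2%), among them Smad7 and Pmepa1, inhibitors and targets of the pathway, and Tgfbr2, whose largest difference from day 0 was -4.88.

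**Figure D2:**
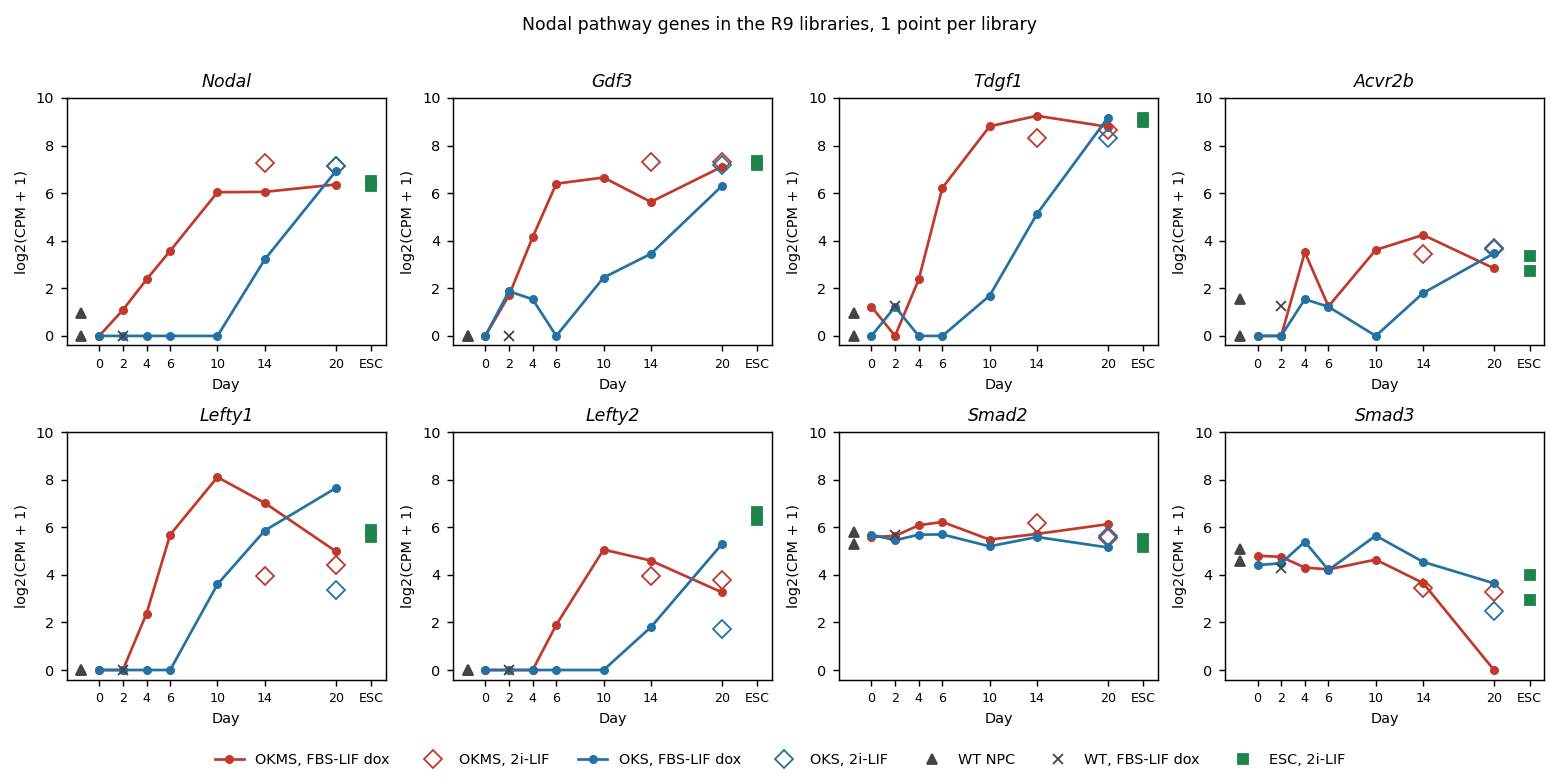
Level of each gene in the R9 libraries, as log2(CPM + 1), against day. Lines join OKMS or OKS NPCs in NPC medium on day 0 to the later days in FBS-LIF with doxycycline. Open diamonds stand for 2i-LIF, triangles for WT NPCs, crosses for WT cells in FBS-LIF with doxycycline and squares for ESCs. The OKMS line lies above the OKS line on days 6 and 10 for Nodal, Gdf3, Tdgf1, Lefty1 and Lefty2, and Lefty1 in OKMS falls from 274 CPM on day 10 to 30.8 CPM on day 20.

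OKMS and OKS were then compared over days 2 to 20 with day as a block. The days served as replicates here, so the p-values measure how steady the difference was from day to day. Nodal, Gdf3 and Tdgf1 were called higher in OKMS, 3 of the 8 members, where 6.93% of 14277 genes were called higher and 11.0% lower. The difference was 2.56 for Nodal (SE 0.66, limma adjusted p = 0.012), 2.67 for Gdf3 (SE 0.65, limma adjusted p = 0.0098) and 3.04 for Tdgf1 (SE 0.89, limma adjusted p = 0.022). OKMS was higher in 5 of 6 days for Nodal, 5 of 6 for Gdf3 and 4 of 6 for Tdgf1. Nodal was above 1 CPM in all 6 OKMS libraries and at 0 in OKS on days 2, 4, 6 and 10. It thus passed the filter of 1 CPM in 6 libraries through OKMS, which favoured the direction of its call. For Nodal the OKMS values of days 2 and 4, 1.13 and 4.17 CPM, rest on 1 and 2 reads. The OKS counts of 0 on those days allow up to 4.01 and 2.86 CPM. The day 2 value lies under that limit, and the day 4 value lies above it but on 2 reads alone, so neither day shows a clear difference. The Tdgf1 value of day 4 in OKMS also rests on 2 reads. Lefty1 and Lefty2 were not called (limma adjusted p = 0.11 and 0.21). Lefty1 was called when day 20, on which OKS exceeded OKMS, was left out (difference 2.74, limma adjusted p = 0.0082). The call of Tdgf1 was lost without day 4, 6, 10 or 14 (limma adjusted p = 0.050 to 0.090). Smad3 was lower in OKMS by a fitted -1.06 that did not pass (limma adjusted p = 0.086). Without the day block 0 members were called, and in the R10 libraries of days 2, 6 and 18 also 0, with differences of 0.37 for Nodal, 1.29 for Gdf3 and 1.30 for Tdgf1. In the extended lists 8 of 33 tested genes were called (24.2%), all of them lower in OKMS. They included Inhba (the activin A subunit), Bambi (a pseudoreceptor), at 20.8 ± 16.0 CPM (SD, n = 6) in OKMS and 90.3 ± 46.0 CPM (SD, n = 6) in OKS, and Tgfb2. The summed CPM of 8 pluripotency markers was 98.3 in OKMS and 139 in OKS on day 2, 89.7 and 111 on day 4, 1261 and 149.9 on day 6, 5113 and 100.4 on day 10, 9499 and 769 on day 14, and 9583 and 8332 on day 20. It was lower in OKMS on days 2 and 4 and higher in OKMS on the later days. The list holds Pou5f1 (Oct4), a factor of both sets. Whether reads of the induced factor were counted to it is not given in the sources used here. Other marker lists moved with the genes called lower. The summed CPM of 6 mesenchymal markers was 83.7 to 657 in OKMS and 399.5 to 2559 in OKS over the 6 days, and that of 4 astrocyte markers was 49.3 to 799 and 119 to 1751, both lower in OKMS on 6 of 6 days. The part of cell composition in these differences was not tested.

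In late cultures, 2i-LIF was compared with FBS-LIF and doxycycline in 5 pairs of one genotype, day and chemistry. Serum, the inhibitors and doxycycline, which is named for FBS-LIF only, change together, so their parts cannot be told apart. Gdf3 was higher in 2i-LIF in 5 of 5 pairs and Lefty1 was lower in 4 of 5. These were the 2 members called, where 5.95% of 14935 genes were called higher and 6.32% lower. Gdf3 was at 143 to 191 CPM with a median of 159 in 2i-LIF and at 31.2, 48.5, 76.8, 77.6 and 137 CPM in the other medium, with no overlap (difference 1.25, SE 0.23, limma adjusted p = 0.0013). Within R9 its difference was 0.93 and within R10 it was 1.74 (limma adjusted p = 0.049 and 0.047), so only the R10 value passed both thresholds. Nodal was also higher in 5 of 5 pairs, at 75.8 to 152 CPM against 49.0 to 120 CPM. Its difference of 0.72 (SE 0.18, limma adjusted p = 0.012) was under the size threshold.

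Lefty1 was at 9.31, 14.7, 20.4, 21.9 and 75.8 CPM in 2i-LIF and at 30.8, 40.1, 129, 199 and 323 CPM in FBS-LIF with doxycycline (difference -2.16, SE 0.53, limma adjusted p = 0.0093). The exception was OKMS day 18 in R10, with 75.8 CPM in 2i-LIF and 40.1 CPM in the other medium. The 2 OKS pairs had the widest gaps, 199 against 9.31 CPM on day 20 and 323 against 21.9 CPM on day 18. The call was lost without the OKMS day 14 pair or without either OKS pair (limma adjusted p = 0.072 to 0.088). Within R9 the difference was -2.63 (limma adjusted p = 0.0052) and within R10 it was -1.46 (limma adjusted p = 0.43). Lefty2 went both ways: it was lower in 2i-LIF in both OKS pairs and in OKMS day 14, and higher in OKMS day 20 and OKMS day 18 (5.94 CPM in FBS-LIF with doxycycline and 45.8 CPM in 2i-LIF). The difference of the 2i-LIF effect between OKMS and OKS was 3.14 for Lefty1 and 3.27 for Lefty2, and neither passed (limma adjusted p = 0.43 and 0.52).

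Tdgf1 was lower in 2i-LIF in 4 of 5 pairs with a difference of -0.19 (limma adjusted p = 0.66), and Acvr2b, Smad2 and Smad3 were not called either (limma adjusted p = 0.44, 0.96 and 0.75). Of the extended lists, 6 of 36 tested genes were called (16.7%, beside 12.3% over all genes), 2 higher and 4 lower. Gsc, a Nodal target of the primitive streak, was at 18.1 ± 12.9 CPM (SD, n = 5) in 2i-LIF and 1.66 ± 1.44 CPM (SD, n = 5) in FBS-LIF with doxycycline, a rise, and Eng rose with it. Skil, a Smad corepressor that the pathway induces, was lower at 13.5 ± 6.78 CPM (SD, n = 5) against 46.3 ± 15.1 CPM (SD, n = 5), and Tgfb2 was lower too. Tgfb3 was at 0 in the 5 libraries of 2i-LIF and was called lower, but it passed the filter through the other medium alone, which fixed its direction. The pluripotency markers summed to 10217 to 15896 CPM in 2i-LIF (median 13954) and to 5726 to 15716 CPM in the other medium (median 9499), with overlap. They include Pou5f1, to which reads of the induced factor may have been counted. Markers of other cell types also moved with this comparison. The summed CPM of 6 mesenchymal markers was 12.3 to 20.8 in 2i-LIF and 80.1 to 444 in the other medium. That of 4 astrocyte markers was 6.45 to 9.39 and 44.5 to 119, and that of the 2 listed trophoblast markers in the table was 29.1 to 56.3 and 123 to 369, all 3 without overlap. The formative marker list, which holds Otx2, was at 18.3 to 56.4 and 40.1 to 325 CPM. The list of streak and mesoderm markers, which holds Gsc, was at 3.53 to 34.4 CPM in 2i-LIF (median 27.9) and 0 to 71.7 CPM in the other medium (median 3.17). These ranges overlapped and the highest sum was in FBS-LIF with doxycycline, so the rise of Gsc does not stand for that list. The part of cell composition in the results was not tested.

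**Figure D3:**
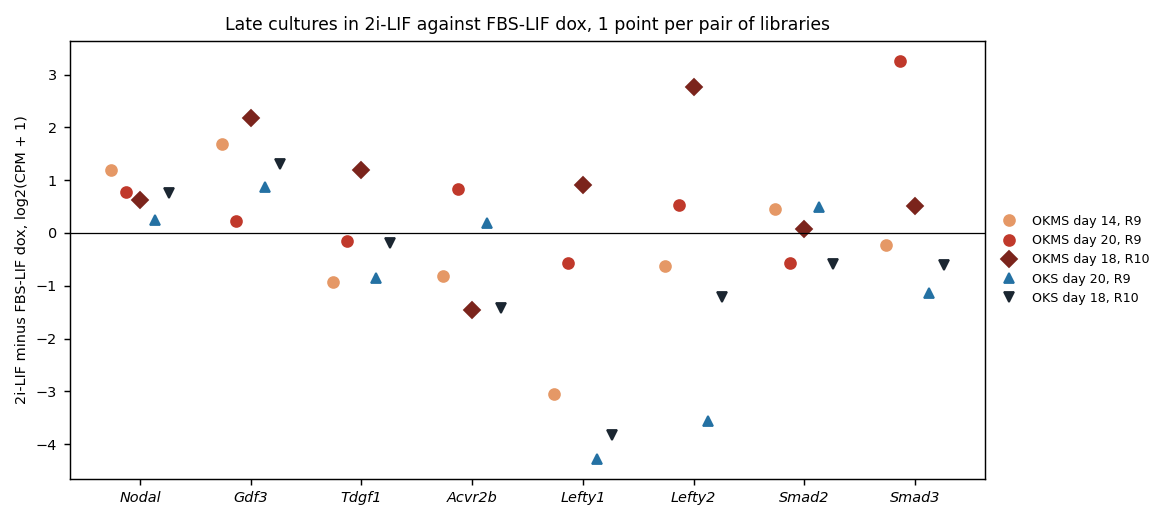
Difference between 2i-LIF and FBS-LIF with doxycycline in log2(CPM + 1) for each gene, with 1 point for each of the 5 pairs of one genotype, day and chemistry. Nodal and Gdf3 lie above 0 in 5 of 5 pairs, Lefty1 lies below 0 in 4 of 5, and Lefty2 spreads from -3.55 to 2.76.

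The end points were then set against ESCs, within R10, with the 6 numbered ESC libraries shared by both comparisons. Day 18 cells in 2i-LIF differed in 0 of 8 members (limma), where 12.2% of 15571 genes were called (5.59% higher and 6.59% lower). At an unadjusted p under 0.05 there were 2, Gdf3 and Lefty1, and edgeR and DESeq2 called 0. Lefty1 and Lefty2 passed when R1-Clone3 n1 was left out (limma adjusted p = 0.018 and 0.011), both higher in the day 18 cells. In R9 the same contrast, with days 14 and 20, went the other way for both: -1.82 for Lefty1 and -3.30 for Lefty2 (limma adjusted p = 0.026 and 0.012), with Lefty1 at 47.5 and 57.8 CPM and Lefty2 at 78.2 and 97.5 CPM in the R9 ESC libraries. Day 18 cells still in FBS-LIF with doxycycline differed in 3 of 8 members, with 11.1% of 15964 genes called higher and 12.8% lower. These cells and the ESCs differ in medium and doxycycline as well as in cell source, so these parts cannot be told apart. Gdf3 was lower, at 31.2 and 76.8 CPM against 186 to 320 CPM in ESCs (difference -2.29, SE 0.30, limma adjusted p = 0.00033). Acvr2b was higher, at 16.3 and 26.9 CPM against 4.93 to 10.1 CPM (difference 1.35, SE 0.32, limma adjusted p = 0.0086). Its call was lost when the R1 library without an n number, at 23.5 CPM, was added (limma adjusted p = 0.078). Lefty1 was higher, at 40.1 and 323 CPM against 2.30 to 54.2 CPM (difference 3.48, SE 0.96, limma adjusted p = 0.018), with overlap, and DESeq2 gave it no adjusted p and called 2 members. Without the OKS library 1 member, Gdf3, was called, and in R9 0 were. Markers of other cell types moved with this comparison: the mesenchymal sum was 80.1 and 429 CPM against 4.00 to 13.5 CPM in ESCs, and the sum of the 2 listed trophoblast markers in the table was 231 and 145 CPM against 26.9 to 60.3 CPM. Their part in the result was not tested.

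Among the extended lists, 4 of 33 tested genes were called in the 2i-LIF comparison and 9 of 36 in the other. These shares, 12.1% and 25%, were near the 12.2% and 24.0% called over all genes, so the genes named are examples and no result about the lists. T (Brachyury), a streak gene, was called lower in day 18 cells of 2i-LIF, where it was at 0 in both libraries, against 4.93 to 15.1 CPM in the 6 ESC libraries. At the depth of the day 18 libraries a count of 0 allows up to 5.29 and 4.69 CPM. Inhba was called higher in both media and was at 0 in the 6 ESC libraries. T passed the filter through the ESC libraries alone and Inhba through the day 18 libraries alone, so the filter fixed the direction of both.

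The ESC lines differed in Lefty1. It was at 7.30 and 7.17 CPM in O4G, 4.67 and 2.30 CPM in R1, and 54.2 and 16.7 CPM in R1-Clone3, the one member called between lines (limma F test, adjusted p = 0.0026, largest difference 2.85), where 3.78% of 14750 genes were called. The R1 library without an n number, which was not in that fit, had 18.7 CPM, above the lower R1-Clone3 library, so that R1 and R1-Clone3 overlapped for Lefty1 with it counted. The R9 library of R1 had 47.5 CPM. Lefty2 was at 16.7 and 6.72, 7.27 and 4.59, and 91.9 and 10.5 CPM in the same order (largest difference 2.26, limma adjusted p = 0.096). In each line the n1 library had the higher Lefty2 value. With the n number as a replicate block Lefty2 was called too (limma adjusted p = 1.8e-05), and the count over all genes went from 557 to 874. That block was chosen from these same data. In each line n1 was also the deeper library, with 4245818 and 2231872 reads in O4G, 3852791 and 3047432 in R1, and 3447721 and 2581968 in R1-Clone3. The part of depth in the blocked call was not tested. Gdf3 differed with a low p but a difference of 0.61 (limma adjusted p = 0.0057): it was at 186 and 198 CPM in R1-Clone3, 239.5 and 270 CPM in O4G, and 271 and 320 CPM in R1. Nodal (51.1 to 98.0 CPM), Tdgf1 (389 to 506 CPM), Acvr2b, Smad2 and Smad3 were not called. Of the extended lists 4 of 31 tested genes were called (12.9%), among them the receptor genes Tgfbr3 and Acvr1b and the activin antagonist Fst.

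Transcripts gave a second view of the same genes, in TPM, a unit that carries a length correction and from which depth cannot be read. Of the 105 member transcripts 30 were tested between ESCs and NPCs in R10 and 23 were called, all higher in ESCs, where 39.8% of 58952 transcripts were called (23.4% higher and 16.4% lower). The called transcripts had mean values of 0 to 0.236 TPM in NPCs and passed the filter through the ESC libraries, so their direction was fixed by it and adds no support to the gene values. They were 10 of 11 tested Tdgf1 transcripts, 9 of 9 of Gdf3, 2 of 2 of Nodal and 1 each of Lefty1 and Lefty2. Of the 5 tested Smad2 transcripts 0 were called (limma), and no Smad3 transcript passed the filter of 1 TPM in 4 libraries.

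Nodal (chr10:61417972-61425338, GRCm38, plus strand) had 2 transcripts in the table. The first matched all 3 annotated exons. The second joined exon 1 to exon 3 and left out exon 2 (chr10:61422982-61423697), whose 716 bases make up most of the 1062 annotated coding bases. The removed length leaves a remainder of 2 on division by 3, and the authors' classification lists an open reading frame of 131 residues for it, against 354 in the annotated protein and 310 listed for the 3-exon transcript. The mature Nodal ligand is the C-terminal end of the precursor. The 30 bases on each side of the 3 junctions are shown, with the downstream exon in capitals, because only the last one is particular to the 2-exon transcript.
Exon 1 to exon 2: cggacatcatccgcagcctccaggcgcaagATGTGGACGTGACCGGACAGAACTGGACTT
Exon 2 to exon 3: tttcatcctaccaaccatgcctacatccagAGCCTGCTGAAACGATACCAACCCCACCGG
Exon 1 to exon 3: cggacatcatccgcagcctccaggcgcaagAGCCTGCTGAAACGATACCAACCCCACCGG

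The 2-exon transcript was present in some groups of libraries and listed at 0 in others, and these differences were not tested. Of libraries with at least 30 Nodal reads, it was listed at 0 in all 7 in FBS-LIF with doxycycline (33 to 167 reads) and in both R10 day 18 libraries in 2i-LIF (43 and 97 reads). It was above 0 in the 3 R9 libraries in 2i-LIF, where it made up 53.4% to 57.3% of Nodal TPM, in both R9 ESC libraries (59.4% and 59.8%) and in all 7 R10 ESC libraries (33.6% to 59.8%). Within R10 and 2i-LIF, the ESC libraries above 0 had 157 to 329 Nodal reads, more than the 2 day 18 libraries at 0, so cell source and read number cannot be told apart there. The highest R10 value came from the R1 library without an n number, the one with the low mitochondrial share, and the 6 numbered ESC libraries lay between 33.6% and 44.7%. OKS day 20 gave the contrast in one chemistry: 167 Nodal reads and 0 TPM of the 2-exon transcript in FBS-LIF with doxycycline, and 122 reads and 109 TPM in 2i-LIF. A value of 0 in these estimates can also be a failed estimate, so the transcript is said only to be listed at 0 there. The 3-exon transcript was above 0 in all of these libraries.

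**Figure D4:**
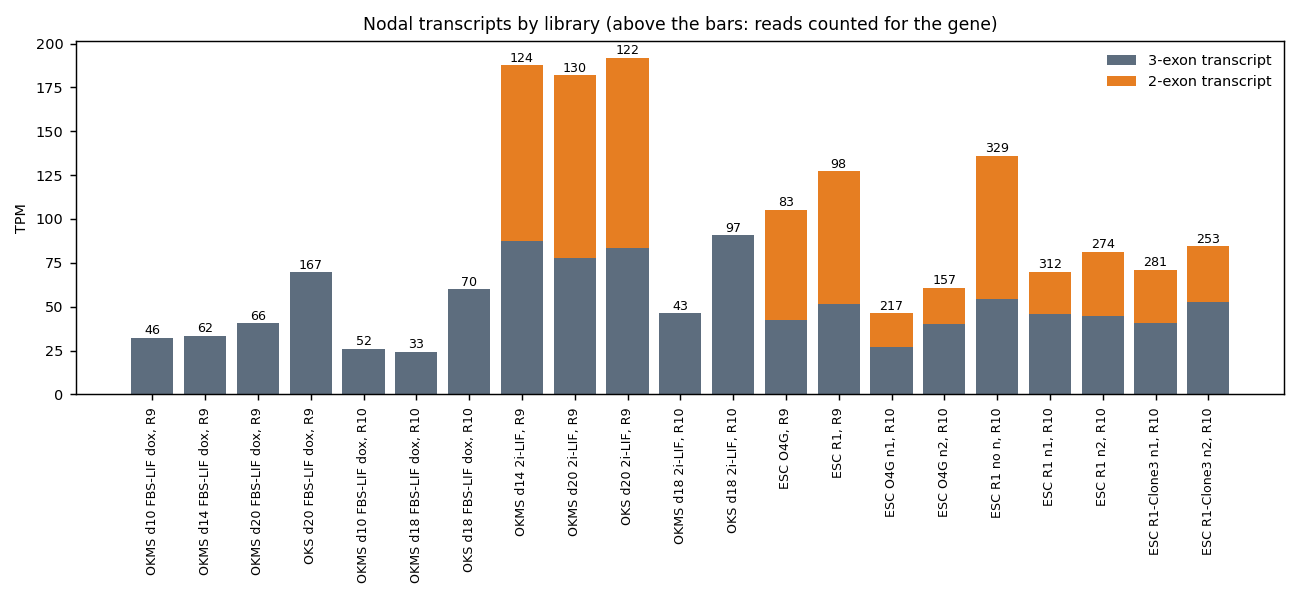
TPM of the 3-exon (grey) and 2-exon (orange) Nodal transcripts in each library with at least 30 reads for the gene, with the number of reads above each bar. Orange is present in R9 2i-LIF cultures and in 9 ESC libraries, and is listed at 0 in 7 libraries of FBS-LIF with doxycycline and in 2 R10 libraries of day 18 in 2i-LIF.

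Tdgf1 and Gdf3 shared another feature: the most abundant transcript of each began upstream of the annotated gene. For Tdgf1 (chr9:110939603-110946158, minus strand) it had 7 exons, with a first exon of 266 bases at chr9:111002642-111002907, 56484 bases upstream of the annotated start and overlapping Gm10030 on the opposite strand. For Gdf3 (chr6:122605403-122610087, minus strand) it had 3 exons, with a first exon of 29 bases at chr6:122631627-122631655, 21540 bases upstream and 1355 bases from Dppa3. Both kept a full listed reading frame, 171 residues for Tdgf1 and 366 for Gdf3. In R10 ESCs these transcripts made up 55.3% ± 4.46 (SD, n = 7) of Tdgf1 TPM and 54.6% ± 5.24 (SD, n = 7) of Gdf3 TPM. Over the 24 libraries with at least 10 TPM of Tdgf1 the share ran from 45.5% to 71.4%, and over 23 such libraries of Gdf3 from 29.4% to 95.1%. In these estimates a transcript with the upstream start was thus listed above 0 in every library with that level of either gene, in both chemistries and both media. Reads across the upstream junctions were not examined, and whether alignment or the transcript models produced these starts was not tested.

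**Figure D5:**
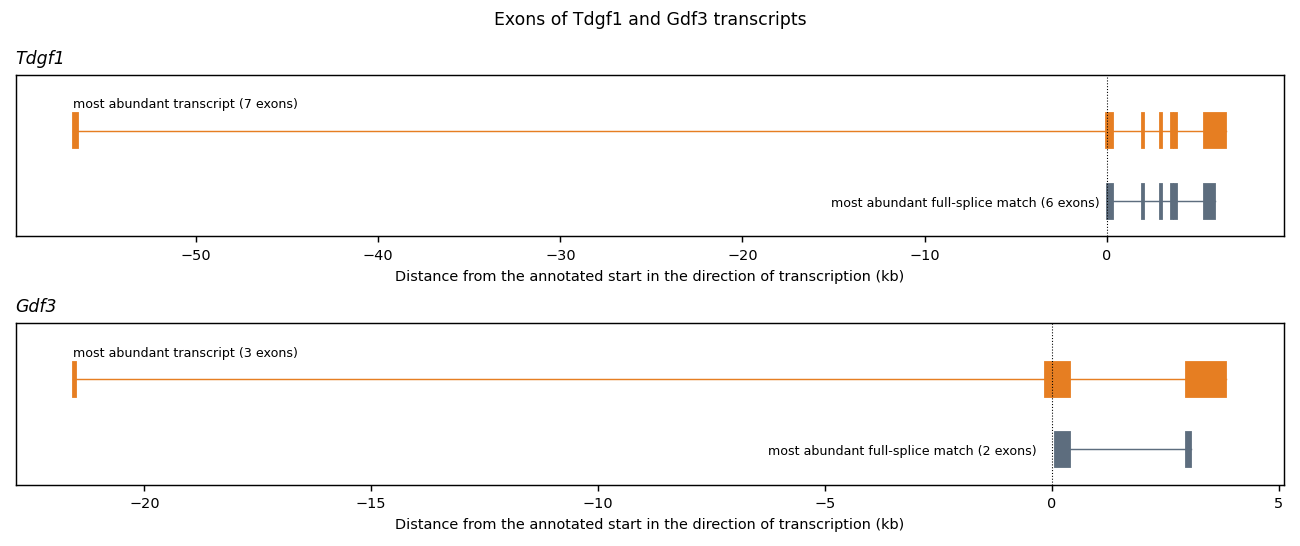
Exons of the most abundant transcript (orange) and the most abundant transcript that matches the annotated splicing (grey) of Tdgf1 and Gdf3, against distance from the annotated start in kb, with very short exons drawn at a minimum width. The first orange exon lies 56484 bases upstream for Tdgf1 and 21540 bases upstream for Gdf3.

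The RefSeq promoter windows (300 bases that span the gene's start, GRCm38.p6) of 4 members were searched on both strands for the letters AATCCACA (FOXH1), CAGAC (SMAD), CTTTGAT (TCF) and ATTTGCAT (OCT). The only matches were CAGAC in Tdgf1 and Acvr2b, a motif that 49.6% of 32851 such windows hold, against 0.855% for FOXH1, 3.73% for TCF and 1.74% for OCT. The windows of Nodal and Tdgf1 are shown since the 2 genes rose together, with the match in capitals. They are the windows of the annotated starts, not of the upstream exon of Tdgf1.
Nodal (chr10:61417722-61418021, plus strand): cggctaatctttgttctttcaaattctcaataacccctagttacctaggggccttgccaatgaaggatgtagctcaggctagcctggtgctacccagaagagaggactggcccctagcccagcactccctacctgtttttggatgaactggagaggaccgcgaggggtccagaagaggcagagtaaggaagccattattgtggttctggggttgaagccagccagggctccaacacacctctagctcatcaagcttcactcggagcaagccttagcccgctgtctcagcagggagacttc
Tdgf1 (chr9:110946109-110946408, minus strand): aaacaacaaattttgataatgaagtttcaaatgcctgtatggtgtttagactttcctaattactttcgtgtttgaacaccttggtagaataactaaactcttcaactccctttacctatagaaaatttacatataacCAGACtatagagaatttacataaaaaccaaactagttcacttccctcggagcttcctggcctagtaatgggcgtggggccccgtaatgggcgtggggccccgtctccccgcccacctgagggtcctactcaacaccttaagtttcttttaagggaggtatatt

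Smad2 (chr18:76241580-76310963, plus strand) had 35 transcripts and was the only member with at least 5 TPM in both NPCs and ESCs, so transcript shares were tested for it alone. Its cassette exon of 90 bases (chr18:76286860-76286949), which in the protein adds 30 residues, was in 24 transcripts and skipped in 6. The skipping share was 7.80% ± 6.41 (SD, n = 4) in R10 NPCs and 10.8% ± 3.60 (SD, n = 7) in R10 ESCs (difference 2.98, exact permutation p = 0.34, two-sided). The share of the most abundant transcript and that of full-splice matches did not pass either (exact permutation p = 0.29 and 0.38, adjusted p = 0.38 for all 3 over the 3 shares). The smallest p this exact permutation test could reach was 0.0061.

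Across the 23 R10 libraries, the genes most like each member were found by Pearson r on log2(CPM + 1), with the r over the 22 R9 libraries beside it. The points share ESC and NPC groups, depth and kit, so r is a description. Nodal was most like Zfp42 (0.99 and 0.99), Gdf3 most like Zscan10 (0.99 and 0.94) and then Nanog, and Tdgf1 most like Foxh1 (0.99 and 0.96) and then Dppa4. Lefty1 was most like Otx2 (0.93 and 0.89), and Lefty2 most like Sarnp (0.91 and 0.70). Acvr2b had no close match (highest r 0.77 in R10, Dcaf4). Smad2 was most like Ammecr1 in R10 (0.82), which did not carry over to R9 (0.26). Smad3 was most like Pip4p2 (0.90 and 0.85).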

How the data were processed

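Gene expression was measured by nanopore cDNA sequencing in 45 libraries. The deposited gene table holds CPM and the deposited transcript table holds TPM, per the file headers. Reads were aligned with minimap2 2.24-r1122 to mm10, per the submitters' processing notes, and the treatment of strand and of reads that match several genes is not given in the sources used here. Of the gene columns, 13 matched no sample and were not used. CPM steps gave whole reads for 100% of values above 0 (tolerance 0.02 reads), so edgeR 4.0.16 and DESeq2 1.42.0 could be run on the recovered reads as added alternatives.

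The main test was limma 3.58.1 (lmFit, eBayes with trend, R 4.3.3) on log2(CPM + 1) or log2(TPM + 1), over features with at least 1 CPM or TPM in as many libraries as the smaller group. The time course and the ESC lines needed 2 libraries. Calls needed a Benjamini-Hochberg adjusted p under 0.05 over all features tested and a log2 difference of at least 1, and tests were two-sided. Such differences understate the change of low genes. On simulated data with known changes, 100% of 4-fold changes were recovered for ESC against NPC (15415 genes) and 100% for the late pairs (14935 genes). For the time course the share was 96% (19357 genes). Recovery at the levels and the spread of the 8 members was not tested. In the measured time course Gdf3 was not called by the F test over all days, with a largest difference from day 0 of 6.70 (limma adjusted p = 0.051).

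All 8 members were named in every comparison, and of the extended pathway lists the called genes with the largest differences in each direction. The members and lists were chosen with earlier results of these data known. Same-numbered ESC libraries of the 3 lines deviated together (correlations 0.261, 0.165 and 0.277 over genes), so the n numbers were taken as pairing them, from the data and not from a stated batch. Promoters came from RefSeq (GRCm38.p6), with 4 of the 8 members matched.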

Additional observations from a re-analysis of the deposited data

Results flagged for a closer look

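Of 20 groups examined for a single library far from the others, 7 had one. The rule gives about 1 in 20 for normally spread values only. That rate does not hold for skewed CPM values or for counts near 0, so the 7 are a description. In R10 ESCs, Lefty1 was at 54.2 CPM and Lefty2 at 91.9 CPM in R1-Clone3 n1, against 18.7 and 16.7 CPM in the next library. Acvr2b was at 23.5 CPM in the R1 library without an n number, against 10.1 CPM in the next. Smad2 was at 52.5 CPM in R1 n2, against 46.6 CPM in the next. In NPCs the values rest on 1 or 2 reads: Lefty1 at 1.17 CPM in the R10 OKS library, and Nodal at 0.968 CPM and Acvr2b at 1.94 CPM in the R9 WT replicate 2 library, where the other libraries of the group were at 0.

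The R10 minus R9 contrast of the 2i-LIF minus ESC difference in log2(CPM + 1) was 0.96 for Tdgf1, 3.84 for Lefty1 and 4.73 for Lefty2 (limma interaction, adjusted p = 0.036, 0.049 and 0.031). The sign of the difference itself changed between the chemistries: it was 0.33, 2.02 and 1.43 in R10 and -0.63, -1.82 and -3.30 in R9. Days and ESC lines also differ between the chemistries, so these cannot be told apart.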

How the results depend on the processing

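Of 1095 member differences under an alternative, 986 kept their direction and side of the threshold, 37 lost the call, 24 gained it and 48 changed sign. Of these sign changes 46 were in values called under neither setting. The other 2 were Lefty1 (-1.82) and Lefty2 (-3.30) in 2i-LIF against ESCs with R9 libraries. In that comparison R9 also turned Gdf3 (0.0071), Tdgf1 (-0.63), Acvr2b (0.54) and Smad2 (0.45), and median centring turned Acvr2b (0.015). R9 libraries turned Lefty2 in FBS-LIF day 18 against ESCs (-2.73), Acvr2b (0.49), Smad2 (0.11) and Smad3 (-0.55) in the WT medium comparison, Tdgf1 (-0.66), Acvr2b (-1.27) and Smad2 (-0.12) in the factor comparison, and the Smad2 shares of the most abundant transcript (-5.18 percentage points) and of full-splice matches (38.1). R10 libraries turned Lefty1 (-0.43) and Smad2 (-0.20) for OKMS against OKS. In the late pairs R9 alone turned Acvr2b (0.073) and Smad2 (0.12), R10 alone turned Tdgf1 (0.50), Lefty2 (0.77) and Smad3 (-0.054), and median centring turned Smad2 (0.061). WT NPCs alone turned Smad2 in ESC against NPC (-0.057). The largest Smad2 difference between days was -0.38 (quantile), -0.62 (median centring), -0.40 (edgeR) and -0.32 (DESeq2), where the sign depends on which day is farthest. The causes were not tested.

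Leaving out 1 library, day or pair gave ranges that cross 0. They were -0.0037 to 0.079 for Smad2 in ESC against NPC, -0.24 to 0.75 for Smad3 in the WT medium comparison, and -0.30 to 0.32 for Smad2 and -2.78 to 0.54 for Smad3 in the time course. In the late pairs they were -0.53 to 0.00032 for Tdgf1, -1.22 to 0.36 for Lefty2, -0.16 to 0.11 for Smad2 and -0.37 to 0.73 for Smad3. For 2i-LIF against ESCs they were -0.023 to 0.97 for Nodal, -0.026 to 0.68 for Tdgf1, -0.46 to 0.27 for Acvr2b and -0.54 to 0.25 for Smad3. For FBS-LIF against ESCs they were -0.64 to 0.22 for Nodal, -0.51 to 0.17 for Tdgf1, -0.99 to 2.30 for Lefty2, -0.24 to 0.36 for Smad2 and -0.25 to 0.073 for Smad3.

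Members called went from 3 to 2 (pseudocount 0.25, quantile), 4 (no filter, minimum of 5 CPM), 5 (median centring) and 7 (edgeR) in the time course, and from 0 to 5 when single days were left out. For OKMS against OKS they went from 3 to 0 without the day block and to 0 in R10, with 2 to 4 when a day was left out. For 2i-LIF against FBS-LIF they went from 2 to 1 in R9 pairs and 1 in R10 pairs, with 1 to 2 when a pair was left out. For day 18 against ESCs they went from 0 to 2 (2i-LIF) and from 3 to 0 (FBS-LIF) in R9, with 0 to 2 and 1 to 3 when a library was left out. For the ESC lines they went from 1 to 2 with median centring, edgeR and the replicate block, with 1 to 2 when a library was left out.

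Leaving out a library gave 5 to 7 members for ESC against NPC in each chemistry. With the replicate block on WT libraries, which share only a number (correlation 0.551), 0 members were called, Smad2 had a limma adjusted p of 0.0080, and the count over all genes was 5605 against 3940. No other member call changed with a replicate block than Lefty2 between ESC lines.

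Counts over all genes also moved. The WT medium comparison gave 1562 in R9. The factor comparison gave 114, and 74 (pseudocount 0.25), 181 (minimum of 5 CPM), 29 (quantile), 399 (median centring), 334 (edgeR), 482 (DESeq2), 0 (R9) and 0 to 115 with a library left out. The time course gave 2078, and 4573 with edgeR and 601 to 2423 with a day left out. OKMS against OKS gave 2567, and 2 without the day block, 0 in R10 and 1686 to 3236 with a day left out. The late pairs gave 1832, and 1166 in R9, 188 in R10 and 1210 to 1908 with a pair left out. Day 18 in 2i-LIF gave 1896, and 1151 (minimum of 5 CPM), 621 (edgeR), 675 (DESeq2) and 110 (R9). Day 18 in FBS-LIF gave 3824, and 2383 (DESeq2) and 191 (R9). The ESC lines gave 557, and 301 (DESeq2), 874 (replicate block) and 343 to 475 with a library left out. Depth limits the low values: a count of 0 allows up to 6.69 CPM in the shallowest R9 library.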

Other observations

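The gene table also lists antisense features at 2 members, with values on the same CPM scale. The feature novelGene_Tdgf1_AS was at 0 in all 8 NPC libraries and at 3.91 ± 1.48 CPM (SD, n = 7) in R10 ESCs and at 1.89 and 2.79 CPM in the R9 ESC libraries. The feature novelGene_Lefty1_AS was at 0 in the NPC libraries, at 1.48 and 3.84 CPM in the day 18 libraries in FBS-LIF with doxycycline, and at 0 to 0.328 CPM in R10 ESCs. Whether the counting used strand is not given in the sources used here, and without strand, reads of a gene and its antisense partner cannot be told apart. These differences were not tested.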
